A study of Homo sapiens with 5 samples.

Results

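Enzymes that turn squalene into cholesterol were compared between parental HAP1 cells and a METAP1 knockout line by RNA sequencing. The members are 9 genes given by name (SQLE, LSS, CYP51A1, MSMO1, NSDHL, HSD17B7, EBP, SC5D and DHCR7), and 8 of them were found among the 10626 genes of the table. CYP51A1 was not analysed here. HAP1 is a near-haploid human line derived from chronic myeloid leukaemia cells, and METAP1 encodes an aminopeptidase that removes the first methionine from new proteins. The wild type group had 3 libraries of unedited cells. The knockout group had 2 libraries of a CRISPR/Cas9-edited line with a 179 bp insertion in exon 4 of METAP1. The labels write METAP1D once beside this edit. Both groups shared a medium with 10% foetal bovine serum, penicillin and streptomycin, and total RNA was depleted of ribosomal RNA before sequencing. The labels describe 1 edited line, so genotype and clone cannot be told apart. They name biological replicates but not how cultures were kept, so a p-value reflects the spread between the libraries at hand, which may be technical.

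Cholesterol is built from acetyl-CoA in a long chain of reactions at the endoplasmic reticulum, and squalene is the last open-chain intermediate. Beyond it the molecule is oxidised, folded into the ring system of lanosterol, stripped of methyl groups, and adjusted in its double bonds until cholesterol is reached. Genes of the whole chain are known targets of the transcription factor SREBP2, which is released from the membrane when sterols are low and is held back by the INSIG proteins when sterols are high. Proliferating cells in culture obtain cholesterol both from this synthesis and from lipoproteins in serum.

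The table held between 12570051 and 16519292 reads per library. METAP1 itself had 1868, 1932 and 1944 normalized counts in wild type replicates 1, 2 and 3 and 611 and 748 in knockout libraries 2 and 3, which carry the numbers of the table (log2 fold change -1.49, SE 0.115, adjusted p = 9.33e-05, edgeR). The other methionine aminopeptidase genes were not called, with -0.12 for METAP2 (adjusted p = 0.393) and 0.05 for METAP1D (adjusted p = 0.810, edgeR). Of the markers of other cell types, 1 of 13 haematopoietic, 2 of 9 fibroblast and mesenchymal, 3 of 5 epithelial, 0 of 6 hepatocyte and 0 of 5 steroid-producing cell markers had values, and the remaining ones were not analysed here. The summed level of the 3 epithelial markers lay between 18.0 and 20.9 in wild type and at 38.8 and 42.9 in the knockout, with most of the gap from KRT8, and that of the 2 mesenchymal markers between 86.9 and 103 in wild type and at 94.6 and 101 in the knockout. KIT, the 1 haematopoietic marker, was at 3.25 to 3.31 and at 4.67 to 4.97. The part of these markers in the results below was not tested. A level here is the number of reads per kilobase of gene length for every 1000000 normalized reads.

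The members shared a promoter feature that had no part in their selection. The CCAAT box, bound by the general factor NF-Y, was found on either strand in 8 of the 9 RefSeq promoter windows (GRCh38.p14, 250 bases before to 50 after a start) of the 7 measured members that have one. By comparison, 35.1% of the windows of all tested genes held it. Counted by gene, all 7 members held it in at least 1 window, as did 6 of 7 genes from acetyl-CoA to squalene, 5 of 7 other genes that act after squalene, 5 of 11 of SREBP control and uptake, and 44.0% of tested genes. Counted this way, the box was nearly as common among the genes that supply squalene as among the members. Counted by window it was less common there, in 7 of 12 windows (58.3%) against 88.9% of the members' windows. The other genes that act after squalene held it in 6 of 10 windows, and those of SREBP control and uptake in 6 of 15. Both windows of SC5D overlap and hold the same box. The window without it belongs to a second start of DHCR7. SC5D, whose RNA moved the other way from the remaining members, held the box too. The 25 bases around the last box before the start are given for each member with a window (HSD17B7 has another just past its start). Each stretch was chosen for its box, so the box is shared by choice, and likeness of the flanking bases was not tested. They are read in the direction in which the box (in capitals) reads CCAAT:
LSS, chr21:46228910-46228934, forward strand: gcccacgcaaCCAATcagagcgccg
MSMO1, chr4:165327625-165327649, forward strand: ctctcgcaggCCAATaacgacagga
NSDHL, chrX:152830969-152830993, forward strand: ccgagctgggCCAATcctcttggtg
HSD17B7, chr1:162790640-162790664, reverse strand: gctgatccctCCAATctcagtccgc
EBP, chrX:48521768-48521792, reverse strand: acggagcgagCCAATggtgaagcga
SC5D, chr11:121292705-121292729, reverse strand: gagcggccagCCAATcagcgaccgg
DHCR7, chr11:71448427-71448451, forward strand: cgattgcctgCCAATcggaggcgga

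NSDHL had 5 matches in its window and MSMO1 had 4, with a pair in NSDHL that overlap each other on opposite strands. The core of the sterol regulatory element, searched as TCACNCCAC on both strands, was in 0 of the 9 windows and in 0.996% of the windows of tested genes, so these letters do not stand in the windows searched. The Sp1 box GGGCGG was in 7 of 9 windows against 68.2% of those of tested genes. A match is a string of letters and not a measured site. The stretches just upstream of HSD17B7, the member that fell most, and of MSMO1, which has 3 boxes there, are given on the forward strand to show their spacing, with CCAAT or its reverse complement ATTGG in capitals:
HSD17B7, chr1:162790452-162790701: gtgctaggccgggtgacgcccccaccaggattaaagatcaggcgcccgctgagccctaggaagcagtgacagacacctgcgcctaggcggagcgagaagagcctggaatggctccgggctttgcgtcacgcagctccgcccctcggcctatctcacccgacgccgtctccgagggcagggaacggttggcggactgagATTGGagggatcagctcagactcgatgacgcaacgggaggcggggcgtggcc
MSMO1, chr4:165327419-165327622: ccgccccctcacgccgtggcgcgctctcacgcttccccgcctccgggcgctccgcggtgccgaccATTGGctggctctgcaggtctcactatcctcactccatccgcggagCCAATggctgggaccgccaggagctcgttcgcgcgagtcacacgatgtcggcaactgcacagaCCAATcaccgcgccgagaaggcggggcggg

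Of the 8 measured enzyme genes, 7 fell and 1 rose in the knockout (adjusted p under 0.05, quasi-likelihood test of edgeR, Benjamini-Hochberg over 10620 tested genes). Across all tested genes, 29.7% were called, 14.8% lower and 14.9% higher. The authors' deposited table also had 7 of the 8 lower and 1 higher at an adjusted p under 0.05, where 31.6% of its genes passed in either direction and 15.8% were lower. The 7 falls ranged from 64.4% of the wild type level for LSS to 39.7% for HSD17B7, and all 7 lay among the lowest 6.27% of log2 fold changes. The ranges of the genotypes did not overlap in any of the 8 genes, while among all tested genes 29.2% had both knockout libraries below the wild type range and 30.1% had both above it. The median log2 fold change of the 8 was -0.85, beside 0.01 over all tested genes. All 8 passed the filter on low counts, with between 116 and 3648 reads per gene and library.

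**Figure D1:**
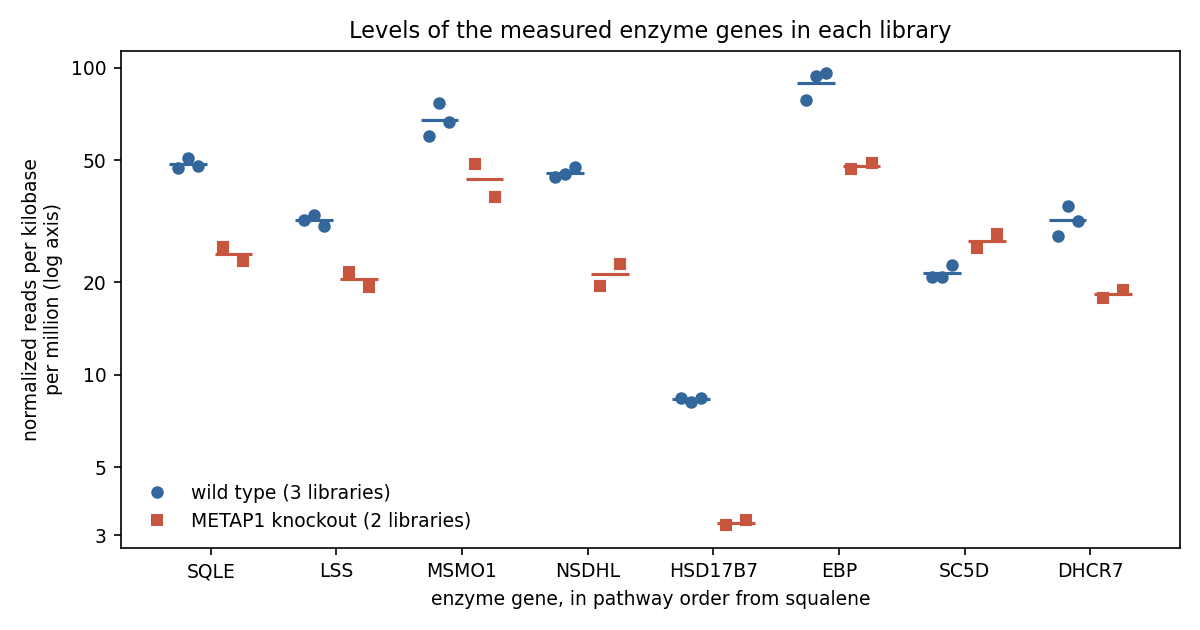
Level of each measured enzyme gene (normalized reads per kilobase and 1000000 reads, log axis) in the 3 wild type libraries (circles) and the 2 METAP1 knockout libraries (squares), with the group mean as a line and genes in pathway order. In 7 genes both squares lie below all circles, and in SC5D both lie above them.

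The entry steps were lower in both knockout libraries. SQLE (ENSG00000104549, chr8:124998497-125022283, forward strand, GRCh38) encodes squalene epoxidase, a rate-limiting enzyme of the branch. Its level was 47.3, 51.0 and 48.0 in the wild type libraries and 26.0 and 23.5 in the knockout libraries. The groups stood well apart, with little spread within either, and the log2 fold change was -0.98 (SE 0.0985, adjusted p = 0.000336, edgeR). LSS (ENSG00000160285, chr21:46188141-46228824, reverse strand) encodes lanosterol synthase, which folds the epoxide into the first sterol. Its level was 31.9, 33.1 and 30.6 in wild type and 21.7 and 19.4 in the knockout, again without overlap. Its log2 fold change of -0.64 (SE 0.0986, adjusted p = 0.00250, edgeR) was the smallest fall among the members, though close to that of MSMO1. Their order turned under some settings. Without wild type replicate 2, LSS was at -0.61 and MSMO1 at -0.54, and with the length trend removed at -0.71 and -0.57.

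The 3 measured genes of methyl group removal act one after the other on the same part of the sterol ring and fell to different extents. MSMO1 (ENSG00000052802, chr4:165327623-165343160, forward strand), the oxidase that starts this removal, had a level of 59.9, 77.0 and 66.7 in wild type and of 48.8 and 38.1 in the knockout. Both groups were spread by about the same factor, 1.29 from lowest to highest in wild type and 1.28 in the knockout, the widest of all members in each. The log2 fold change was -0.65 (SE 0.145, adjusted p = 0.0127, edgeR), and without knockout library 3 it was -0.48 and not called (adjusted p = 0.120). NSDHL (ENSG00000147383, chrX:152830967-152869729, forward strand), the dehydrogenase that releases the oxidised carbon, had 44.0, 45.1 and 47.5 in wild type and 19.5 and 23.0 in the knockout. It fell by 1.10 on the log2 scale (SE 0.119, adjusted p = 0.000472, edgeR). HSD17B7 (ENSG00000132196, chr1:162790702-162812817, forward strand), the ketoreductase that closes the cycle, had the lowest level of all members, at 8.43, 8.13 and 8.38 in wild type and 3.23 and 3.36 in the knockout. Its libraries agreed closely within each group, and its log2 fold change of -1.33 (SE 0.134, adjusted p = 0.000332, edgeR) was the largest fall.

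The last steps move, add and remove double bonds, and here the members parted. EBP (ENSG00000147155, chrX:48521158-48528716, forward strand), the sterol isomerase, was the most abundant member at 78.3, 94.4 and 96.0 in wild type and had 47.0 and 49.2 in the knockout. Its log2 fold change was -0.90 (SE 0.116, adjusted p = 0.00113, edgeR). DHCR7 (ENSG00000172893, chr11:71428193-71452868, reverse strand) encodes the reductase that makes cholesterol from its direct precursor 7-dehydrocholesterol. Its level was 28.4, 35.4 and 31.8 in wild type and 17.8 and 18.8 in the knockout, with a log2 fold change of -0.80 (SE 0.117, adjusted p = 0.00197, edgeR).

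SC5D, the desaturase that acts between EBP and DHCR7, was the exception (ENSG00000109929, chr11:121292453-121308694, forward strand). Its level was 20.8, 20.9 and 22.8 in wild type and 25.9 and 28.8 in the knockout. Both knockout libraries were above all wild type libraries, by a narrow gap, and 30.1% of all tested genes had both above. The log2 fold change was 0.35 (SE 0.103, 95% interval 0.11 to 0.58, adjusted p = 0.0360, edgeR), which is 127% of the wild type level. The log2 fold change of SC5D lay at percentile 79.1 of those of all tested genes. No other member's interval came above -0.31. The rise was called in the authors' deposited table as well, with a log2 fold change of 0.33 and adjusted p = 0.0283. In edgeR fits on 4 libraries the call was lost on leaving out replicate 2 (0.32) or 3 (0.39) of wild type, or library 2 (0.42) or 3 (0.27) of the knockout, with the direction kept each time.

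The falls kept their direction across the ways of processing the counts, and the rise was the value closest to its threshold. Over 14 other settings, the log2 fold change of HSD17B7 stayed between -1.36 and -1.27, that of SQLE between -1.05 and -0.91 and that of SC5D between 0.27 and 0.42. SC5D was called in 10 of the 14, MSMO1 in 13 and each of the other 6 members in all 14.

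**Figure D2:**
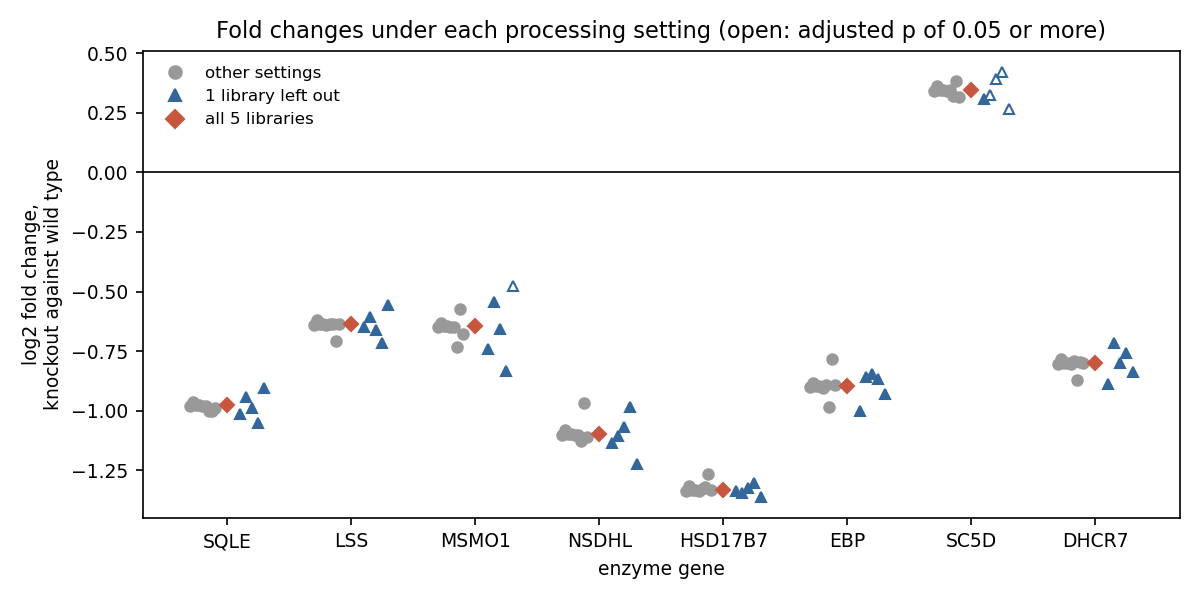
Log2 fold change of each enzyme gene with all 5 libraries (diamonds), with 1 library left out (triangles) and under 9 other settings (circles), where open symbols have an adjusted p of 0.05 or more. The open symbols are 4 triangles of SC5D and 1 of MSMO1, and no gene crosses 0.

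Some shares of the branch also stood apart between the genotypes, which is given as a description with no test of its own. The shares of LSS, MSMO1 and DHCR7 overlapped between the genotypes. Of the summed level of the 8 genes, SC5D made up 6.25 ± 0.455% over 3 wild type libraries and 13.2 ± 1.26% over 2 knockout libraries (mean ± SD). The SC5D level was 0.733, 0.590 and 0.718 times that of DHCR7 in the wild type libraries and 1.45 and 1.53 times in the knockout libraries. So SC5D was the less abundant of this pair per length in each wild type library and the more abundant in each knockout library. The other 7 shares moved less: the largest gaps were NSDHL, with 13.2 ± 0.770% in wild type and 10.3 ± 1.40% among knockout libraries, and EBP, with 25.9 ± 1.37% and 23.2 ± 1.21% (SD, n = 3 and 2). The summed level itself was 319, 365 and 352 in wild type and 210 and 204 in the knockout.

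In wild type cells the order of mean levels was EBP (89.6 ± 9.79), MSMO1 (67.9 ± 8.63), SQLE (48.8 ± 2.00), NSDHL (45.5 ± 1.75), LSS (31.9 ± 1.27), DHCR7 (31.9 ± 3.50), SC5D (21.5 ± 1.15) and HSD17B7 (8.31 ± 0.160) (SD, n = 3). The ranges of SQLE and NSDHL overlapped, as did those of LSS and DHCR7, so neither pair could be ordered. In the knockout the order was EBP (48.1 ± 1.56), MSMO1 (43.4 ± 7.59), SC5D (27.3 ± 2.08), SQLE (24.8 ± 1.75), NSDHL (21.2 ± 2.49), LSS (20.5 ± 1.63), DHCR7 (18.3 ± 0.714) and HSD17B7 (3.30 ± 0.0933) (SD, n = 2). There EBP overlapped with MSMO1, SC5D with SQLE, and NSDHL with LSS. SC5D went from rank 7 to rank 3, and the other members kept their order apart from that.

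**Figure D3:**
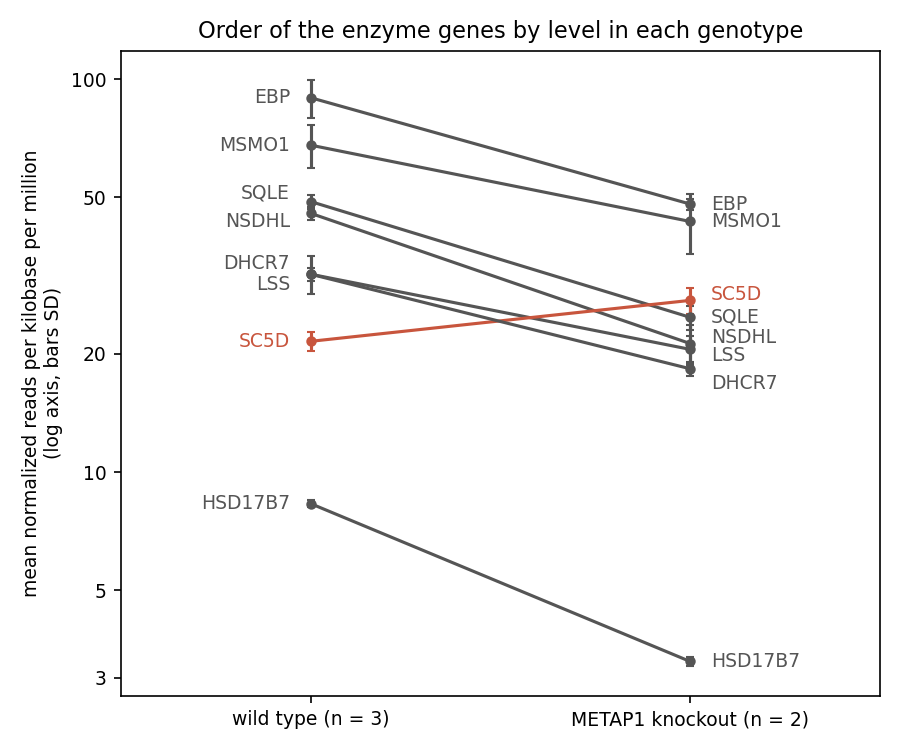
Mean level of each enzyme gene (normalized reads per kilobase and 1000000 reads, log axis, bars SD) in wild type (n = 3) and METAP1 knockout cells (n = 2), joined by a line per gene. The line of SC5D climbs from 21.5 to 27.3 and crosses those of SQLE, NSDHL, LSS and DHCR7, which run downward.

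RNA of most other genes that act after squalene was lower too. Of 10 measured genes in this list, 9 fell and 1 was not called, while 14.8% of all tested genes fell. The median log2 fold change of the list was -0.53. The pair of enzymes that share the ring reductase step just after CYP51A1 had log2 fold changes of -0.51 (SE 0.141) for TM7SF2 and -0.46 (SE 0.0937) for LBR, which is also a protein of the inner nuclear membrane (adjusted p = 0.0274 and 0.00834, edgeR). The call of TM7SF2 was lost on leaving out replicate 2 (-0.40) or 3 (-0.56) of wild type or library 2 (-0.49) or 3 (-0.53) of the knockout. That of LBR was lost without replicate 3 of wild type (-0.44) or without library 2 (-0.47) or 3 (-0.44) of the knockout. With a library left out, between 2 and 9 genes of this list were called lower. The gene not called, named after its value was seen, was CYB5R3, an electron donor partner (-0.33, adjusted p = 0.132, edgeR).

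The arm that supplies squalene, from acetyl-CoA onward, had 9 of 10 measured genes lower and 1 not called, beside 14.8% lower among all tested genes. The median log2 fold change of this arm was -0.91. HMGCS1, which makes HMG-CoA, had the largest fall (-1.64, SE 0.0922, adjusted p = 2.12e-05, edgeR). FDFT1, the squalene synthase whose product SQLE consumes, had a level of 74.6, 84.7 and 75.3 in wild type and 52.3 and 46.1 in the knockout, a change of -0.67 (SE 0.105, adjusted p = 0.00264, edgeR). The gene not called, also named after its value was seen, was GGPS1, which diverts the chain to protein prenylation (-0.02, adjusted p = 0.928, edgeR), whose sign turned under 4 of the 14 other settings.

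The genes that sense sterols and import lipoproteins did not share one direction. Of 13 measured, 4 fell (14.8% of all tested genes did), 1 rose (14.9%) and 8 were not called, with a median log2 fold change of -0.11. With a library left out, between 2 and 5 of them were called lower, with 2 on leaving out either library of the knockout, and between 0 and 2 higher. INSIG1, a sterol-controlled retention protein for SREBP, had a level of 44.9, 55.9 and 46.4 in wild type and 22.8 and 16.4 in the knockout, a change of -1.33 (SE 0.167, adjusted p = 0.00117, edgeR) that is close in size to that of HSD17B7. The riser, named after its value was seen, was INSIG2, the second retention protein (0.52, SE 0.167, adjusted p = 0.0486, edgeR). Its call was lost without replicate 2 (0.37) or 3 (0.57) of wild type and without library 2 (0.58) or 3 (0.44) of the knockout. SREBF2, the gene of SREBP2, had 31.4, 22.2 and 23.0 in wild type and 34.2 and 33.5 in the knockout. It was higher in both knockout libraries than in each wild type library but was not called (0.40, SE 0.151, adjusted p = 0.0779, edgeR). SREBF1, which encodes the related factors that act more on fatty acid genes, was at -0.42 (SE 0.156, adjusted p = 0.0744, edgeR), and SCAP, the escort of SREBP, at 0.01 (SE 0.0953, adjusted p = 0.968, edgeR), with a 95% interval from -0.21 to 0.22 that turned sign under several settings given in the closing section.

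Among ligases and partners that degrade cholesterol enzymes, 1 of 8 genes fell and 7 were not called, with a median of 0.03. This is near the share of all tested genes called lower (14.8%). The ligase gene that fell was RNF145 (-0.70, SE 0.103, adjusted p = 0.00196, edgeR). MARCHF6, the ligase that degrades squalene epoxidase, had a level of 58.4, 39.1 and 51.2 in wild type and 78.0 and 63.3 in the knockout, and was not called (0.51, SE 0.172, adjusted p = 0.0587, edgeR). Among genes of efflux, esterification and the LXR receptors, 2 of 6 rose (14.9% of all tested genes were called higher), 1 fell and 3 were not called. The gene that fell, named after its value was seen, was SOAT1, which esterifies cholesterol (-0.78, adjusted p = 0.000931, edgeR). The risers were APOE, a lipid carrier (3.37, SE 0.196, adjusted p = 2.43e-05, edgeR), and ABCA1, the pump that passes cholesterol to lipoproteins. ABCA1 had a level of 5.40, 3.47 and 4.38 in wild type and of 10.1 and 12.0 in the knockout, a change of 1.33 (SE 0.179, adjusted p = 0.00193, edgeR).

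**Figure D4:**
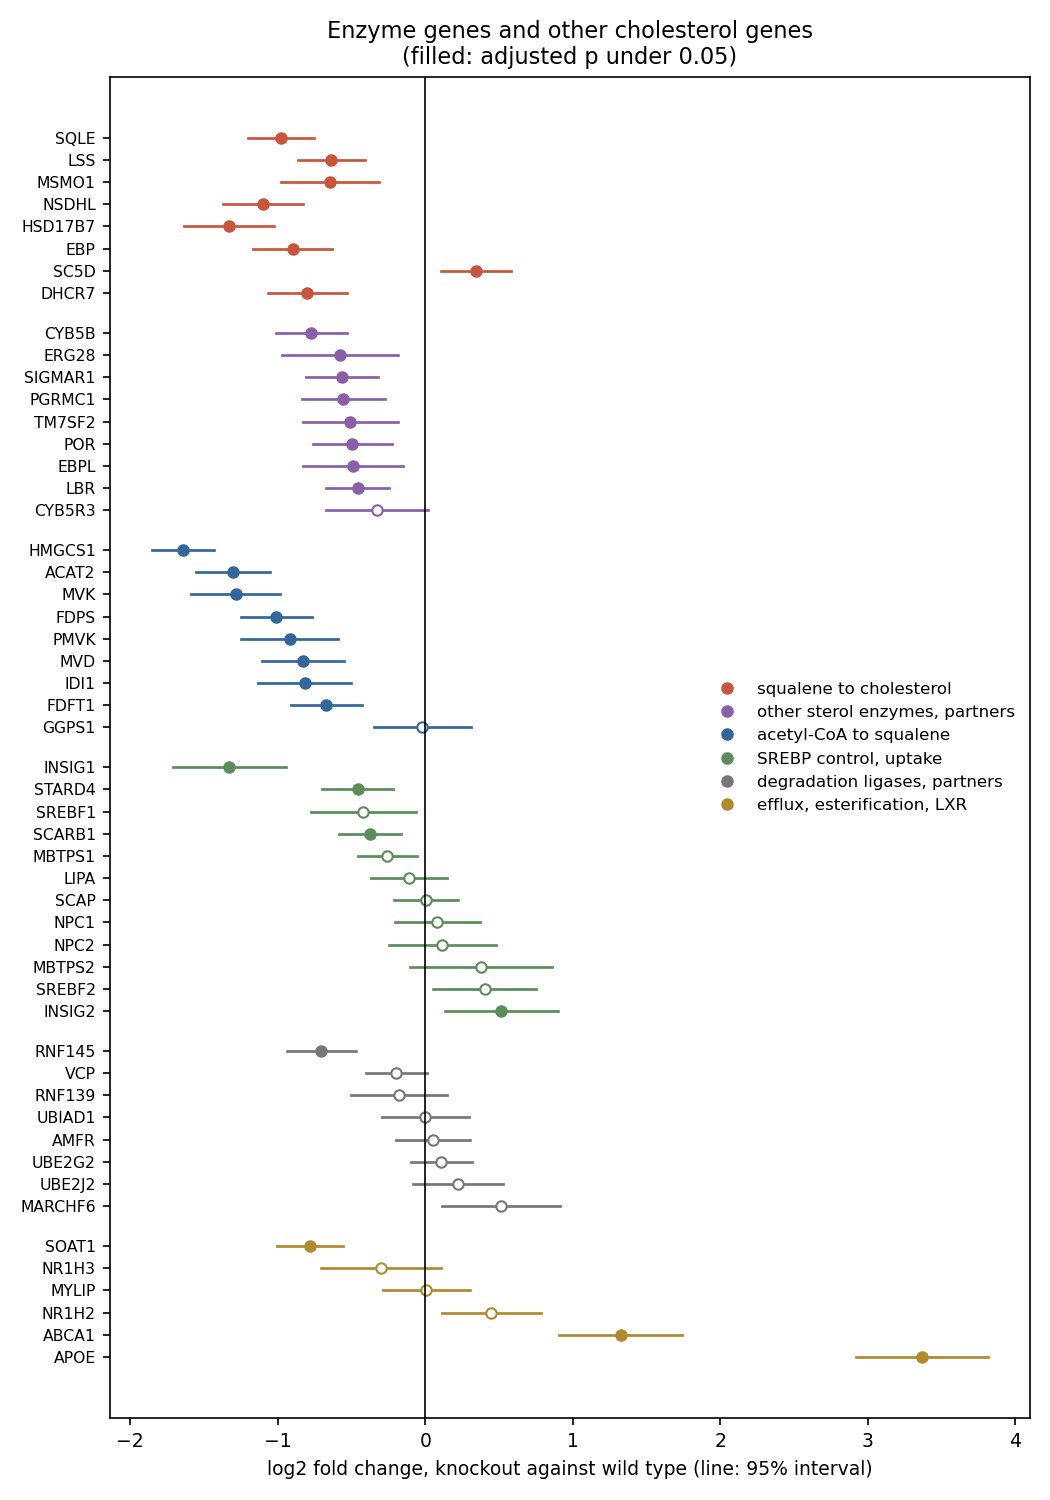
Log2 fold change of knockout against wild type with its 95% interval for the 8 measured enzyme genes in pathway order and for the other lists of cholesterol genes (some genes of these lists are not shown). Filled points passed an adjusted p of 0.05. SC5D (0.35) is the enzyme gene to the right of 0, and HSD17B7 (-1.33) is the farthest to the left among them.

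Outside these lists, the 3 tested genes whose profile over the 5 libraries was nearest to the members' median profile were NUDT12, TP53RK and FAM149B1, with root mean square distances of 0.0215, 0.0290 and 0.0294 on the log2 scale. Their log2 fold changes were -0.87, -0.84 and -0.88, and this likeness to the members follows largely from how the 3 were picked. Of the members, DHCR7 was nearest to that profile (0.0493) and SC5D farthest (0.595).

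The members lie at 8 separate places on 6 chromosomes. The 20 nearest tested genes on each chromosome had median log2 fold changes between -0.09 around EBP and 0.15 around LSS, so no member stood in a stretch whose median moved as far as the member did. Around SC5D the median was 0.11, with 5 of 20 neighbours called higher and 1 lower. Of the members that fell, LSS had 6 of 20 neighbours higher and 2 lower, and DHCR7 had 5 and 0. The other falling members did not lean upward in this way. NSDHL had 3 higher and 6 lower, EBP 1 and 5, SQLE 3 and 4, MSMO1 3 and 4, and HSD17B7 3 and 3. The part of position in these changes was not tested. Of all tested genes, 14.9% were called higher and 14.8% lower. HSD17B7 has a pseudogene copy on chromosome 1 and a transcribed one on chromosome 10 (GENCODE release 29, GRCh38), LSS and DHCR7 overlap antisense genes, and EBP overlaps a miscellaneous RNA gene on its own strand. How reads were split between these was not tested, which leaves the levels of these 4 genes less certain.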

How the data were processed

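One deposited table was used. It holds raw read counts per gene that the authors deposited for each library, beside their own comparison: log2 fold changes with standard errors and adjusted p-values, per the file headers. Gene length in bases was taken from the same table. Named without roles, per the submitters' processing notes, are GRCh37, hg19, STAR 2.4.0i, HTSeq and DESeq2. Whether counting used strand was not given in the sources at hand. Wild type columns carry the numbers of the sample titles, while the knockout columns are numbered 2 and 3 and could be matched to the group but not to a title. The 5 RPKM columns were not used. Names were resolved by Ensembl identifier, and positions are those of GENCODE release 29 (GRCh38) or, for promoters, RefSeq (GRCh38.p14). No coordinate was moved from one build to another.

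The test was that of edgeR 4.0.16 (R 4.3.3) after filterByExpr and TMM, with robust dispersions: a 2-sided quasi-likelihood F-test over the 5 libraries without covariates, adjusted by Benjamini-Hochberg over 10620 genes. A standard error is the fold change over the root of F. A normalized count is a count scaled to the mean effective library size. Depth was between 12570051 and 16519292 reads, and with 3 residual degrees of freedom and a common biological coefficient of variation of 11.7% the number of libraries limits precision. No pair of replicates agreed within sampling noise, since chi-square per degree of freedom was at least 10.1. The fit was tested on simulated data first.

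Other settings were median-of-ratios size factors, library sizes without TMM, a mean of at least 50 counts, no filter, DESeq2 1.42.0, limma-voom (limma 3.58.1), each library left out, a block by column number, and removal of library trends against length or GC content (lowess, span 0.3). The members and lists were chosen with earlier results of these data known. Named genes were all members, METAP1, METAP2, METAP1D, 14 fixed genes of the lists, the called gene with the smallest adjusted p in each list, and the 3 nearest profiles. Some of them are not reported here. A planned look at protein N termini was not run.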

Additional observations from a re-analysis of the deposited data

How the results depend on the processing

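The 7 falls were all called under every one of the 14 other settings except that of MSMO1 without knockout library 3 (-0.48), and each member kept its direction in all 14. With 1 library left out, 6 to 7 members were called lower and 0 to 1 higher. The count of 0 higher came from edgeR fits that lacked replicate 2 or 3 of wild type, or library 2 or 3 of the knockout, where SC5D had in turn unadjusted p = 0.0199, 0.0186, 0.0154 and 0.0857, and so 1 member higher at an unadjusted p under 0.05 in the first 3. DESeq2 and limma-voom on all libraries each called 7 lower and 1 higher. Calls over all genes ranged from 1179 to 4591 with a library left out, against 3150 with all 5: 1665 without wild type replicate 3, 1179 without knockout library 2 and 1322 without knockout library 3. With the lone knockout library left in 2 of these fits, its spread was assumed to be that of the wild type libraries. The 4591 calls came without wild type replicate 1, so calls rose there although that fit also lacked 1 library. Replicate 1 was in the 2 wild type pairs that differed most. Chi-square per degree of freedom was 34.92 for replicates 1 and 2 and 14.98 for replicates 1 and 3. It was 11.03 for replicates 2 and 3. The cause of these moves, the rise included, was not tested.

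The column numbers share nothing in the labels, and deviations of same-numbered libraries correlated across genes at 0.0316 for number 2 and -0.00254 for number 3, so they were not taken as pairs. The replicate block by column number left 7 members lower and 1 higher and gave 4356 calls over all genes. Only wild type replicate 1 carries column number 1, so its block held no knockout library. The fold changes of that fit therefore rest on the remaining libraries, as do those without wild type replicate 1. SCAP, near 0 throughout, turned negative without wild type replicate 3 (-0.0425), without knockout library 2 (-0.0266), and with the length trend (-0.0519) or the GC trend (-0.0290) removed, and METAP1D turned to -0.0491 without knockout library 2. With a library left out SCAP ranged from -0.0425 to 0.0384 and METAP1D from -0.0491 to 0.137. GGPS1 turned positive with the length trend removed (0.0597), and with a library left out it ranged from -0.156 to 0.105. SREBF2 was called higher under the replicate block (0.58) and without wild type replicate 1 (0.57). MARCHF6 was called higher under 6 settings, among them DESeq2 (0.51), and SREBF1 lower under 3. With the length trend removed the members' counts were again 7 and 1.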
